A study of Mus musculus with 8 samples.

Results

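The duplicated chemokine and Fam205 locus is a stretch of mouse chromosome 4 that holds several near-identical copies of genes for chemokines, an interleukin receptor and the Fam205 family. Its members were taken by coordinate: every position of the deposited timing table from 41600000 to 42995000 in the mm10 build, at steps of 5 kb. This gave 280 of the 31301 positions in the table, or 1.4 Mb of sequence. Repli-seq was used to measure when DNA replicates in mouse embryonic stem cells (mESC), the cultured pluripotent cells of the early embryo. The control group was the JM8N4 line. The other group carried a Klf4 enhancer deletion, a loss of a regulatory element of Klf4, which encodes a transcription factor of naive pluripotency. The labels give no other allele, agent or clone, and separate cultures for the replicates are not stated, so p-values measure only the spread between these profiles, which may be technical. In Repli-seq, replicating cells take up BrdU, a nucleotide analog, here for 2 h. The method sorts cells by DNA content into an early and a late fraction of S phase, 40000 cells each, and sequences the labelled DNA of both fractions. The 8 libraries form 4 profiles, 2 per genotype (called control 1 and 2 and deletion 1 and 2), each from 1 early and 1 late library. The question addressed by the genotype comparison was whether cells without the enhancer replicate their DNA at other times.

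Chromosomes replicate in large domains that fire at set times in S phase. Gene-rich, open chromatin tends to replicate early, and gene-poor or silent chromatin tends to replicate late. The chemokines of the locus are small secreted proteins that steer immune cells. CCL19 and CCL21 are the ligands of the receptor CCR7 and draw T cells and dendritic cells into lymph nodes, and CCL27 is a skin chemokine that binds CCR10. The Il11ra genes encode the binding chain of the receptor for interleukin 11, a cytokine that signals through gp130. Copies of such genes arose by segmental duplication, in which a block of DNA is repeated nearby. Reads from near-identical copies can be hard to place on one copy.

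The sequences at the gene starts show how alike the copies are. Each one below is a RefSeq promoter of GRCm38.p6, the assembly behind mm10, running from 250 bases before to 50 bases after the start of transcription, 5′ to 3′ on the strand of the gene. The first 3 are promoters of CCL21 genes, shown because they share nearly every base while their genes lie far apart in the locus. Capitals mark the bases of Ccl21d and of Gm13304 that differ from each other, and the bases of Ccl21a that differ from Ccl21d.
Ccl21d, chr4:41903363-41903662, plus strand: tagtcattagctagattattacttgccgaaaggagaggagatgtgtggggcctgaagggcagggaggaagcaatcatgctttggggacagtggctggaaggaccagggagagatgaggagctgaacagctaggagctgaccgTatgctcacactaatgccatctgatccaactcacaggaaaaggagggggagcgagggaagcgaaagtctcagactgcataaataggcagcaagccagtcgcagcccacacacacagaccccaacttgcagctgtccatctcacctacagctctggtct
Gm13304, chr4:42114537-42114836, plus strand: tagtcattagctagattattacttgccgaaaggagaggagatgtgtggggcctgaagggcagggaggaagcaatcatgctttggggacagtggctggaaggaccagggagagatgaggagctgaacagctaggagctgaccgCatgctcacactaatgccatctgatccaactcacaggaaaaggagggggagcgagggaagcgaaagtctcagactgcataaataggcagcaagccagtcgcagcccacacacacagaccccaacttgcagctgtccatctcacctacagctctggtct
Ccl21a, chr4:42773942-42774241, minus strand: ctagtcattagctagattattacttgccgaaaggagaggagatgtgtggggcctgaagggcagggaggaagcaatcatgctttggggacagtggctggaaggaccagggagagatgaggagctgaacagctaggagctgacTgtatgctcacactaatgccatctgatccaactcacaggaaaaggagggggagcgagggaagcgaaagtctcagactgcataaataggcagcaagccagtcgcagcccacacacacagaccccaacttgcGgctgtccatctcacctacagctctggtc
The other 3 are shown for their content of the dinucleotide CG, which is methylated in silent vertebrate DNA and kept dense in many active promoters. Every CG is in capitals. The CG-dense promoter of Cntfr, a receptor gene at the early edge, has a copy at the annotated start of Ccl21b. The promoter of Gm20878, next to Fam205a4, has fewer CG than these, though more than the median of 7 per promoter in the locus.
Cntfr, chr4:41695426-41695725, minus strand: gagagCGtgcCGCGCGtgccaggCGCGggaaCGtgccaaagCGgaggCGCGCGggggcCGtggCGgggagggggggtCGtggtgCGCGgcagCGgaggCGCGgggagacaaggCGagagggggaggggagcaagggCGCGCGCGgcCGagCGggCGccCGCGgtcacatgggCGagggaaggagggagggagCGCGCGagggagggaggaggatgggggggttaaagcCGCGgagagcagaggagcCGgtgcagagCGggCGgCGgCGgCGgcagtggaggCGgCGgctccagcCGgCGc
Ccl21b, chr4:42172870-42173169, plus strand: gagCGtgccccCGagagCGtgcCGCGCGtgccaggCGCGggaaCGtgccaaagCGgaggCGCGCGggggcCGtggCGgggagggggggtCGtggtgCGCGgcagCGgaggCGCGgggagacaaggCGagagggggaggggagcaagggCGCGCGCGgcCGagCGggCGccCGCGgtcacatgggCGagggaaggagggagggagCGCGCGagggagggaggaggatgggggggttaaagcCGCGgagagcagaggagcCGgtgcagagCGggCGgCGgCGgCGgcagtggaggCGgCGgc
Gm20878, chr4:41941384-41941683, plus strand: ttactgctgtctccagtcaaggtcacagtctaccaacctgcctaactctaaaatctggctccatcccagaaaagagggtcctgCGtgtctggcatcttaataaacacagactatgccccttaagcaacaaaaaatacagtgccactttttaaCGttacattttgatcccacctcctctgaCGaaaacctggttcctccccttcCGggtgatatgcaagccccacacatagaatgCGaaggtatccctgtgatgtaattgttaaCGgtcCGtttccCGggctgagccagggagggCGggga
The promoters of Ccl21d and Gm13304 had 299 identical bases of 300, and those of Ccl21d and Ccl21a had 297. The promoters of Gm13304 and Gm10591, 497 kb apart, had the same 300 bases. The printed promoters of Cntfr and Ccl21b held 45 CG each, and that of Gm20878 held 9 CG. Those of Cntfr and Ccl21b had 288 identical bases and 0 mismatches, the rest lying outside the stretch that both cover.

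The deposited values are timing scores without a unit. The table does not state which direction is early. Of 1301 protein-coding genes of the chromosome, 1037 scored above 0 in every profile, against 13221 of 30659 measured positions (43.1%), so higher scores are read here as earlier. Across the chromosome each profile had an interquartile range of 4.60. The median score was -0.79 in control 1, -0.37 in control 2, -0.73 in deletion 1 and -0.21 in deletion 2. The median difference between deletion and control over all positions was 0.16, so a difference of 0 in the locus lies 0.16 below the middle of the chromosome. No read counts were given in the table, so the depth behind each score is unknown.

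Every position of the locus had a score. None of the 280 positions lacked a value in any of the 4 profiles. Along the whole chromosome, a value was missing from every profile at 639 of 31301 positions (2.04%) and from at least 1 profile at 642. These positions formed 3 runs. One run of 609 positions lay at the start of the chromosome, from 5000 to 3045000, and one of 30 positions lay at its end, from 156360000. The third run, 3 positions from 55465000 to 55475000, lacked values only in the deletion profiles. It was the run nearest to the locus, 12.5 Mb away. The spans of 3 other gene families of the chromosome that arose by duplication also had no position without a value, among 440 positions of the Mup span, 467 of the Skint span and 204 of the Pramel span. The sources used here do not give how reads that match several copies were treated. The score of one copy therefore cannot be told apart from a mixture over its copies.

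The locus was a dip of intermediate timing between early neighbours. All 280 positions scored above 0 in all 4 profiles, against 43.1% of positions on the chromosome, yet the locus scored below both flanks in every profile. The mean score of the locus was 1.46 in control 1, 1.67 in control 2, 1.38 in deletion 1 and 1.43 in deletion 2. Over 1 Mb on each side together, the mean was 2.63 and 2.87 in the control profiles and 2.79 and 3.16 in the deletion profiles. The lower flank alone scored 2.70 and 3.08 in the controls against 2.81 and 3.25 in the deletion profiles. The upper flank scored 2.55 and 2.66 in the controls against 2.77 and 3.06 in the deletion profiles. The locus did not overlap either flank in these means. Locus minus flanks was -1.16 and -1.19 in the controls against -1.42 and -1.73 in the deletion profiles, a mean of -1.38 ± 0.26 (SD over 4 profiles). An exact two-sided sign-flip permutation test over the 4 profiles gave p = 0.125, the smallest it can give. With flanks of 2 Mb the mean was -0.71, and with flanks of 0.5 Mb it was -1.30.

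**Figure D1:**
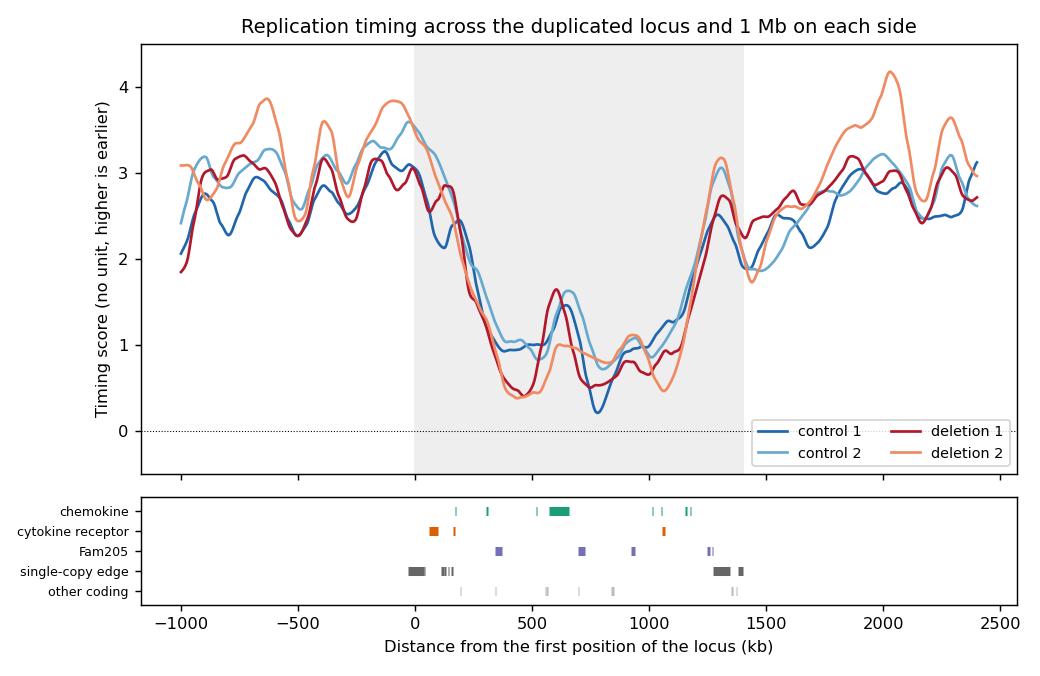
Timing score (vertical axis, no unit) against distance from the first position of the locus in kb, 1 line per profile. The shaded band is the locus, and the bars below mark its protein-coding genes by family. All 4 lines descend from 3.02 or above into a basin that reaches below 1 and climb back to between 2.51 and 3.18 near the upper edge.

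The spans of the Mup, Skint and Pramel families, the 3 set beside the locus, had lower scores than it. The mean score over the 4 profiles was 1.49 in the locus, against -1.76 in the Mup span, -2.26 in the Skint span and -1.57 in the Pramel span. Minus their own flanks of the same width, these spans scored -3.51, -0.70 and -2.23. The locus was thus the one of these 4 regions with a positive mean, while its depth below its flanks lay between those of the Skint and Pramel spans. These are descriptions of single regions, with no test.

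The profile inside the locus had steep shoulders and an uneven floor. The highest score lay at the first position in every profile, 3.05 and 3.53 in the controls against 3.02 and 3.47 in the deletion profiles. The lowest scores lay inside the basin: 0.21 at 42380000 in control 1, 0.71 at 42405000 in control 2, 0.40 at 42065000 in deletion 1 and 0.38 at 42035000 in deletion 2. The lowest point thus lay at higher coordinates in both control profiles than in both deletion profiles, but each profile had another trough in the basin. That trough scored 0.92 at 41980000 in control 1 and 0.82 at 42125000 in control 2. In deletion 1 it scored 0.50 at 42350000 and in deletion 2 0.46 at 42660000. In all profiles but control 1 it was nearly as low as the lowest point, and the order of the troughs was not tested. The share of positions with a score above 2 was 30.0% and 30.4% in the controls against 26.8% and 27.9% in the deletion profiles, against 86.5% or more in each flank. In the mean of the 4 profiles, troughs lay at 42065000 (score 0.70) and 42390000 (0.57), with a rise to 1.37 at 42225000 between them. That rise peaked at 42245000 (1.46) in control 1, at 42255000 (1.63) in control 2 and at 42205000 (1.64) in deletion 1. In deletion 2 no peak with a prominence of at least 0.3 lay there, and the nearest was at 42530000 (1.11). Deletion 2 also had no trough of that prominence near 42390000, where it scored 0.81. The upper shoulder rose to a peak of 2.51, 3.06, 2.73 and 3.18 in control 1, control 2, deletion 1 and deletion 2, all between 42890000 and 42915000. The last position, 42995000, scored 1.93 and 2.11 in the controls against 2.29 and 2.11 in the deletion profiles, past that peak.

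Means over windows of 100 kb show which stretches were early. The first window, with Dnaic1 and Enho, scored 2.67 and 3.34 in the controls against 2.73 and 3.23 in the deletion profiles. The second, with 8 protein-coding genes from Rpp25l to Gm12407, scored 2.29 and 2.77 in the controls against 2.71 and 2.52 in the deletion profiles. In the first window, and in the 2 last ones, from 42800000 and 42900000, the number 2 profiles scored above the number 1 profiles of the same genotype. This order was not particular to the edges. It also held in the windows from 41800000, 41900000, 42300000, 42400000 and 42500000, and in the other windows it did not hold for both genotypes. The window from 42800000, with Fam205a1, scored 2.27 and 2.56 in the controls against 2.13 and 2.59 in the deletion profiles. The window from 42900000, with Vcp, scored 2.27 and 2.70 in the controls against 2.57 and 2.78 in the deletion profiles. Between these edges lay the basin, where the windows from 41900000 to 42700000 scored between 0.40 and 1.55 in every profile. By the mean of the controls its lowest windows were those from 42300000, with 0.52 and 1.04, and from 42400000, with 0.61 and 0.82. Deletion cells scored 0.54 and 0.87 in the first of these and 0.63 and 0.86 in the other, and genotypes overlapped in both. The window from 42100000 scored 1.04 and 0.94 in the controls against 1.09 and 0.58 in the deletion profiles, and that from 42500000 scored 0.95 and 1.01 in the controls against 0.74 and 1.04 in the deletion profiles, and genotypes overlapped there too.

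In 6 of the 14 windows both deletion profiles lay below both controls (42.9%), against 5.22% of the 1534 windows of the chromosome. In none did both lie above, against 15.5% of all windows. The largest difference was in the window from 42000000, a stretch without protein-coding genes, with 0.96 and 1.02 in the controls against 0.46 and 0.40 in the deletion profiles, a difference of -0.56 (SE 0.40). The window from 41800000, also without a protein-coding gene, scored 1.89 and 1.93 in the controls against 1.61 and 1.62 in the deletion profiles, a difference of -0.30. The window from 41900000, with Ccl21d, Gm20878 and Fam205a4, scored 1.03 and 1.26 against 0.85 and 0.88, a difference of -0.28. These 3 windows lie side by side on the descending shoulder and in the first trough. The window from 42200000, with Ccl21b and Fam205a3, scored 1.36 and 1.54 against 1.24 and 0.98, a difference of -0.34. The window from 42600000, with Ccl27b and Il11ra2, scored 1.16 and 0.98 against 0.82 and 0.57, a difference of -0.37. The window from 42700000, with Ccl19 and Ccl21a, scored 1.47 and 1.55 against 1.15 and 1.11, a difference of -0.38. No window of the locus passed limma's test over all 1534 windows (0% of windows called, lowest adjusted p in the locus 1.0), and none had an unadjusted p under 0.05, against 0.847% of all windows. Without control 1 the count of windows below was 9 (64.3%), against 20.6% of all windows. The count above was 5 without control 2 (35.7%, against 52.9% of all) and 4 without deletion 1 (28.6%, against 67.3%). The difference of the window from 41900000 was -0.17 without control 2, and those of the windows from 42200000 and 42600000 were -0.21 and -0.25 without deletion 2. After quantile normalization the differences were -0.51, -0.48, -0.57 and -0.60 in the windows from 41800000, 41900000, 42200000 and 42700000.

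**Figure D2:**
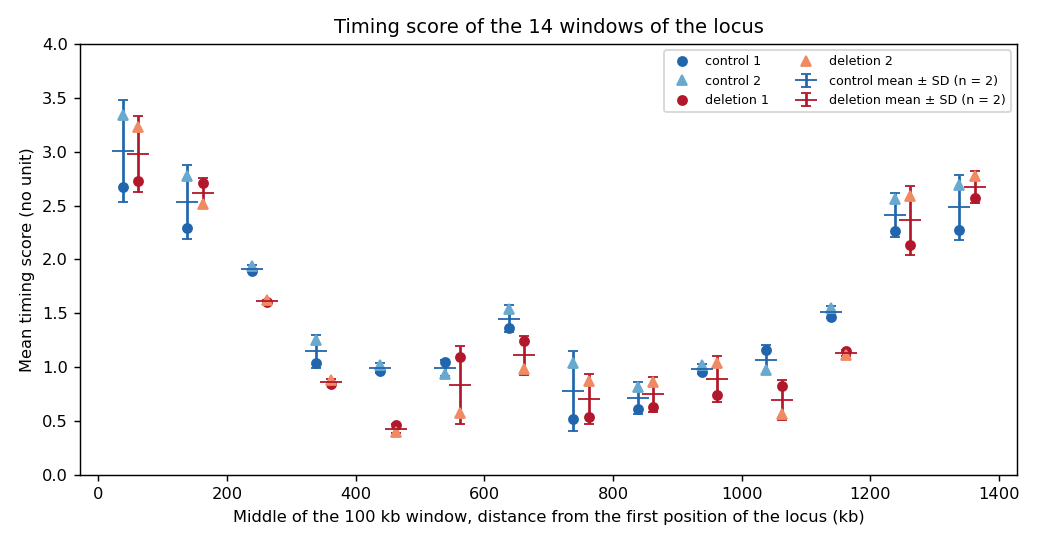
Timing score without a unit (vertical axis, window mean) of the 14 windows of 100 kb, placed by distance of the window's middle from the first position of the locus. Circles are number 1 profiles, triangles number 2, blue control and red deletion, and bars are mean ± SD (n = 2). Deletion points lie below control points in 6 windows and mix with them in the other 8.

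Averaged over the locus, deletion cells scored lower than control cells, while the flanks did not. The control mean was 1.57 ± 0.15 and the deletion mean 1.40 ± 0.04 (SD, n = 2), a difference of -0.17. Both deletion profiles lay below both controls as deposited. After median centring this separation was lost, with 1.73 and 1.52 in the controls against 1.58 and 1.11 in the deletion profiles, and after quantile normalization it held. As deposited, deletion 1 minus control 1 was -0.09, and deletion 2 minus control 2 was -0.24. Relative to the median difference of the chromosome, the difference of the locus was -0.32. In the same comparison the flanks together differed by 0.23, the lower one by 0.14 and the upper one by 0.31. Genotypes overlapped in the lower flank, while in the upper flank each deletion profile scored higher than either control. Locus minus flanks was -1.18 ± 0.02 over the controls against -1.57 ± 0.22 over the deletion profiles, a difference of -0.39, with -0.25 for the first replicates and -0.53 for the other pair. Set against each flank alone, the difference was -0.31 with the lower and -0.48 with the upper flank. An exact two-sided permutation test over the 4 profiles gave p = 0.333 for the locus mean and for locus minus flanks, the smallest that 2 against 2 allows, so neither can pass 0.05. Single profiles moved these values: the locus difference was -0.27 without control 1 and -0.06 without control 2, and that of locus minus flanks was -0.24 without deletion 2. In the other duplicated families, the span minus its flanks differed by -0.13 at Mup, 0.19 at Skint and -0.07 at Pramel. Genotypes overlapped at Mup and Skint, while at Pramel both deletion profiles (-2.23 and -2.29) lay below both controls (-2.21 and -2.18).

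**Figure D3:**
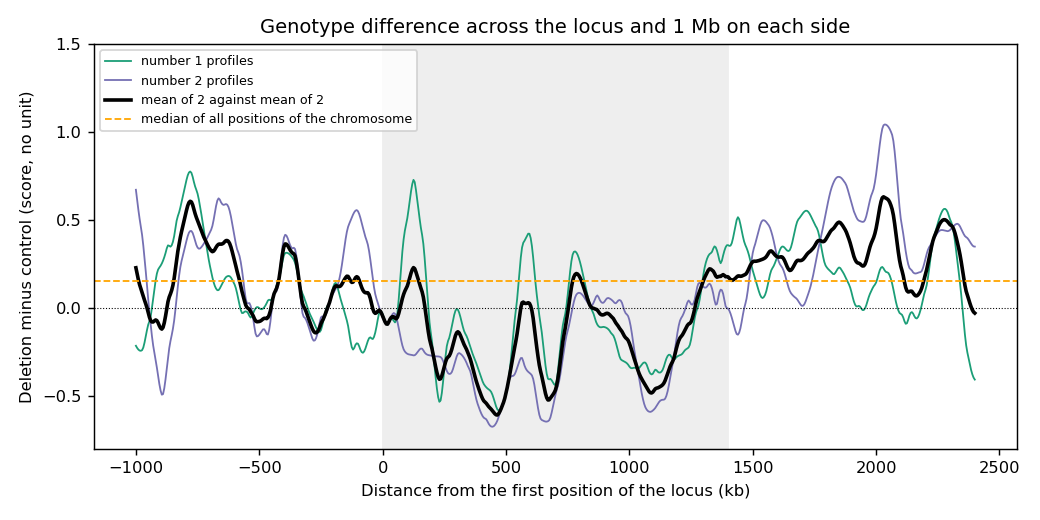
Deletion minus control timing score (vertical axis, no unit) against distance from the first position of the locus in kb, for the number 1 profiles, the number 2 profiles and the means. The shaded band is the locus and the dashed line the median of all positions of the chromosome, 0.16. Inside the band the mean line lies mostly below 0 and reaches -0.61, while outside it lies mostly above 0.

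Per position, 121 of 280 (43.2%) had both deletion profiles below both controls, against 5.86% of the chromosome, and 4 (1.43%) had both above, against 16%. The difference was negative at 206 positions of the locus (73.6%), against 29.0% of all positions. After median centring of each profile, the difference was negative at 83.9% of locus positions and 43.4% of all, and after quantile normalization at 88.2% and 49.3%. Positions below both controls made up 40.4% of the locus and 12.1% of the chromosome after centring, and 55.4% and 14.9% after quantile normalization. Neighbouring scores change by a median of 0.03 from one position to the next, so positions are not independent and these counts carry no test. The 121 positions fell into 4 runs. One of 100 kb began at 41790000, one of 200 kb at 41930000, one of 80 kb at 42235000 and one of 225 kb at 42580000, with mean differences of -0.30, -0.46, -0.46 and -0.35. The run of 200 kb scored 0.97 and 1.04 in the controls against 0.58 and 0.52 in the deletion profiles, and it holds the first trough. The lowest difference of any position, -0.61 (SE 0.39), lay in it at 42065000, where control cells scored 0.97 and 1.03 and deletion cells 0.40 and 0.39. The 4 positions above both controls formed 1 run of 20 kb from 42975000, inside Vcp and just before it, with a mean difference of 0.18. The highest difference, 0.23, lay at 41725000 in Arid3c, where genotypes overlapped, with 2.12 and 2.96 in the controls against 2.85 and 2.69 in the deletion profiles. No position passed limma's test over 30659 positions (0% called, lowest adjusted p in the locus 1.0), and none had an unadjusted p under 0.05, against 0.975% of all positions. Without deletion 2 the count below was 190 (67.9%), against 34.5% of the chromosome. The count above was 65 without control 2, 74 without deletion 1 and 29 without deletion 2, where 52.2%, 65.4% and 23.2% of the chromosome lay above.

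The gap between replicates was smaller in the locus than over the chromosome. The median absolute difference between the control profiles was 0.18 in the locus and 0.40 over the chromosome. Between the deletion profiles it was 0.25 and 0.52. The median absolute genotype difference was 0.19 in the locus and 0.23 over the chromosome.

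The RefSeq annotation lists 67 genes in the locus. Of these, 33 are protein-coding, 10 are long noncoding RNAs and 24 are pseudogenes, or 35.8%, against 20.3% of 2923 genes on the chromosome. The locus has 23.6 protein-coding genes per Mb, against 8.49 on the chromosome. Each gene was given the mean score of its overlapping positions, and small genes rest on 1 to 3 positions. The median score of the 33 genes was 2.18, and the median difference was -0.05, against 2.55 and 0.14 over 1301 genes. None passed limma's test over all 1301 genes (0% called, lowest adjusted p in the locus 0.999), and none had an unadjusted p under 0.05, against 17 of all genes (1.31%). In 11 genes (33.3%) both deletion profiles lay below both controls, against 6.53% of all genes, and in 1 (3.03%), Vcp, both lay above, against 15.1%. After median centring these counts were 10 and 0 (30.3% and 0% of the locus), against 13.5% and 17.8% of all genes. The count below was 19 without control 1 (57.6%, against 26.6% of all genes) and 17 without deletion 2 (51.5%, against 34.7%). The count above was 12 without control 2 (36.4%, against 57.2%), 8 without deletion 1 (24.2%, against 64.2%) and 7 without deletion 2 (21.2%, against 21.9%).

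The chemokine genes ran from the early shoulder to the floor of the basin. RefSeq gives 8 of them here by symbol or synonym: Ccl19, Ccl21a, Ccl21b, Ccl21d, Ccl27a, Ccl27b, and Gm13304 and Gm10591, whose synonyms include Ccl21c. No gene now bears the symbol Ccl21c. The median score was 1.30 and the median difference -0.28, and none passed the test in either direction. In 7 the difference was negative, against 29.4% of all protein-coding genes. In 5 both deletion profiles lay below both controls, against 6.53% of all protein-coding genes. Ccl27a (chr4:41769467-41774225), the skin chemokine gene of the lower edge, was the earliest, with 2.40 and 2.64 in the controls against 2.73 and 2.39 in the deletion profiles, which overlapped. Ccl27b (chr4:42650563-42656008), its relative in the basin, scored 1.19 and 0.98 in the controls against 0.87 and 0.48 in the deletion profiles, a difference of -0.41. Both deletion scores of Ccl27b lay below both control scores, and every one of its scores lay below every score of Ccl27a. Without deletion 2 the difference of Ccl27b was -0.21. Gm13306, whose promoters are identical to those of Ccl27b, has no chemokine name and is not counted among the 8. The difference of Gm13306 was -0.07, and its genotypes overlapped.

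Ccl19 (chr4:42754525-42756365), the other ligand of CCR7, scored 1.42 and 1.60 in the controls against 1.14 and 1.12 in the deletion profiles, a difference of -0.38. Its neighbour Ccl21a (chr4:42772860-42773991), which encodes the form of CCL21 made in lymphoid organs, scored 1.61 and 1.75 in the controls against 1.34 and 1.39 in the deletion profiles, a difference of -0.32. In both genes the deletion profiles lay below the controls by more than the gap between replicates, although neither passed the test. Ccl21b (chr4:42173120-42256825), annotated over 18 positions, scored 1.31 and 1.38 in the controls against 1.49 and 0.92 in the deletion profiles. The deletion profiles of Ccl21b stood on either side of the controls. Ccl21d (chr4:41903613-41904743) scored 1.24 and 1.59 in the controls against 1.24 and 1.32 in the deletion profiles, which also overlapped. Gm13304 (chr4:42114787-42115917) scored 1.0 and 0.85 in the controls against 0.61 and 0.44 in the deletion profiles, a difference of -0.40, the lowest chemokine gene by its mean of 0.73. Gm10591 (chr4:42612123-42613253) scored 1.02 and 0.85 in the controls against 0.68 and 0.71 in the deletion profiles, a difference of -0.24. In both of these genes the deletion profiles lay below the controls. The difference of Gm10591 was -0.16 without control 1. After quantile normalization the differences were -0.41 for Gm10591, -0.63 for Ccl19 and -0.55 for Ccl21a.

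The cytokine receptor genes differed by their place. Cntfr (chr4:41657498-41697091), the binding chain for ciliary neurotrophic factor, scored 2.39 and 3.24 in the controls against 2.61 and 3.07 in the deletion profiles. Il11ra1 (chr4:41760443-41769473), the widely used receptor gene for interleukin 11, scored 2.39 and 2.68 in the controls against 2.78 and 2.45 in the deletion profiles. Genotypes overlapped at both genes. Il11ra2 (chr4:42655275-42665763), the duplicate of Il11ra1, scored 1.22 and 1.01 in the controls against 0.91 and 0.46 in the deletion profiles, a difference of -0.43, with both deletion profiles below both controls. Its difference was -0.21 without deletion 2 and -0.65 without deletion 1. Other class I cytokine receptor genes of the chromosome lie elsewhere. The leptin receptor gene Lepr scored -0.20 and 0.16 in the controls against -0.43 and 1.21 in the deletion profiles, and Csf3r, the receptor gene for granulocyte colony-stimulating factor, scored 2.97 and 3.27 against 2.79 and 3.34. Over the 6 receptor genes the median score was 2.70 and the median difference 0.05, and none passed the test. In 1 of them both deletion profiles lay below both controls, against 6.53% of all protein-coding genes.

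The Fam205 genes fell into a basin group and an edge group. Fam205a4 (chr4:41942295-41971858) scored 0.98 and 1.18 in the controls against 0.76 and 0.81 in the deletion profiles, a difference of -0.30. Fam205a3 (chr4:42294525-42324072) scored 1.01 and 1.40 in the controls against 0.64 and 0.93 in the deletion profiles, a difference of -0.42. Both deletion profiles lay below both controls in these genes. Without control 2 the differences were -0.20 for Fam205a4 and -0.23 for Fam205a3, and without deletion 1 that of Fam205a3 was -0.28. After quantile normalization that of Fam205a4 was -0.49. Fam205a2 (chr4:42522437-42537578) scored 0.94 and 1.07 in the controls against 0.80 and 1.11 in the deletion profiles, with overlap. The edge genes were earlier in every profile: Fam205a1 (chr4:42848067-42859820) scored 2.32 and 2.61 in the controls against 2.15 and 2.64 in the deletion profiles, and Fam205c (chr4:42868003-42874246) scored 2.43 and 2.84 against 2.39 and 2.91. Over the 5 genes the median score was 0.99 and the median difference -0.08, and none passed the test. Of the differences 4 were negative, against 29.4% of all protein-coding genes. In 2 genes both deletion profiles lay below both controls, against 6.53% of all.

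The genes listed as single-copy at the edges were early in every profile. Dnaic1, a dynein chain of cilia, scored 3.02 and 3.52 in the controls against 2.94 and 3.49 in the deletion profiles, and Enho, which encodes the peptide adropin, scored 2.80 and 3.36 against 2.74 and 3.32. Rpp25l scored 2.15 and 3.07 against 2.76 and 2.80, Dctn3, a dynactin subunit, 2.14 and 3.03 against 2.80 and 2.76, and Arid3c, of a family of DNA-binding proteins, 2.13 and 2.96 against 2.85 and 2.69. In these 3 genes control 1 lay lowest and control 2 highest, so genotypes overlapped. Galt, an enzyme of galactose breakdown, scored 2.37 and 2.74 against 2.83 and 2.51. At the upper edge, Phf24 scored 2.45 and 2.98 against 2.64 and 3.10. Its neighbour Dnajb5, a co-chaperone gene that is not on the list, scored 2.28 and 2.77 against 2.62 and 2.80. Vcp, an ATPase that unfolds ubiquitin-tagged proteins, scored 2.00 and 2.19 against 2.32 and 2.23, a difference of 0.18 with both deletion profiles above both controls, which did not hold after median centring. The difference of Vcp was 0.07 after median centring, 0.0045 after quantile normalization, 0.09 without control 1 and 0.28 without control 2. The list of 15 edge genes, 10 of them in the locus, also holds Cntfr, a receptor gene whose promoter is copied in the basin. Over these 15 genes the median score was 2.66. Their median difference was 0.17, against 0.14 over all protein-coding genes. None passed the test, and 2 had a negative difference, against 29.4% of all protein-coding genes. In 2 both deletion profiles lay above both controls, against 15.1% of all protein-coding genes.

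The nearest genes outside the locus were also early. On the lower side, Fam219a scored 3.05 and 3.47 in the controls against 2.84 and 3.80 in the deletion profiles, 1110017D15Rik 3.08 and 3.33 against 2.84 and 3.84, and Myorg, a glycosidase gene, 3.13 and 3.28 against 2.93 and 3.83. On the upper side, Fancg, a gene of the Fanconi anaemia repair pathway, scored 1.90 and 2.02 against 2.25 and 2.01. Pigo, of the synthesis of membrane anchors, scored 1.88 and 1.92 against 2.28 and 1.84, and Stoml2, a mitochondrial membrane protein, 1.88 and 1.89 against 2.33 and 1.77. Genotypes overlapped in all 6 genes.

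**Figure D4:**
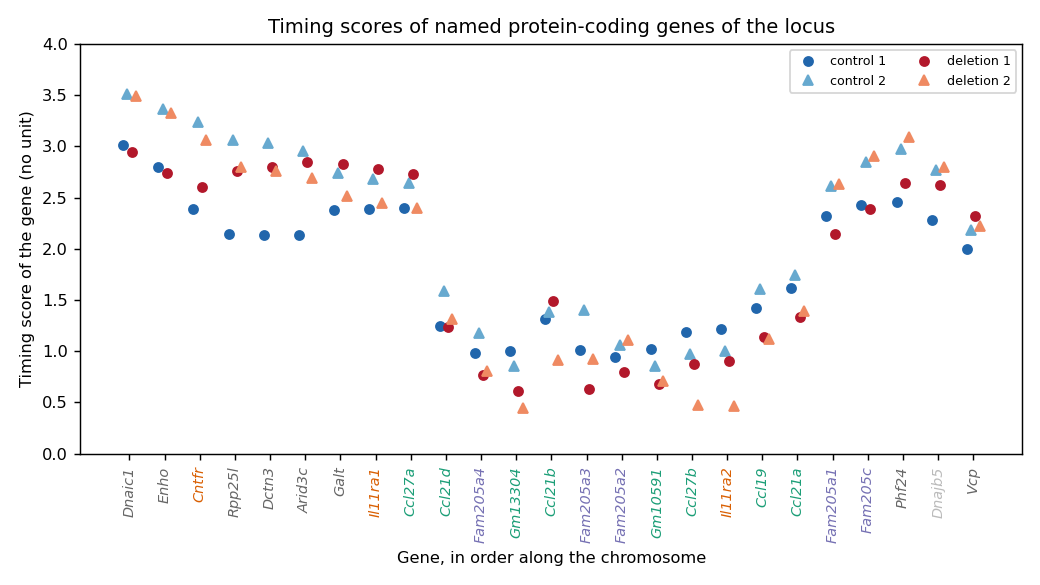
Timing score (vertical axis, no unit) of named protein-coding genes in their order along the chromosome, 1 marker per profile and gene. Name colours mark the families: chemokine green, cytokine receptor orange, Fam205 purple, edge genes dark grey, Dnajb5 light grey. Genes from Ccl21d to Ccl21a lie at 1.75 or below in every profile, and those on both sides lie at 2.00 or above.

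The copied promoters lay mostly in the basin. The RefSeq table has 55 promoters of 36 genes in the locus. Of these genes, 22 had a promoter with at least 90% identical bases to a promoter of another gene of the locus, 16 of them protein-coding. Their scores had a median of 0.95 and ran from 0.65 to 2.74, against a median of 2.65 and a range from 1.11 to 3.04 in the 14 genes without such a copy. In all, 36 pairs of promoters in 30 pairs of genes passed 90%. In 6 gene pairs the copies lay between 497.159 and 497.341 kb apart. Among them Gm20878 and Gm21586 had 300 identical bases, as had Gm13304 and Gm10591, Gm13306 and Ccl27b, and Gm52695 and Gm42276. The pair of Gm13305 and Il11ra2 had 299, with 0 mismatches. The other pair was Ccl21b and 4930578G10Rik.

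Copies at such pairs did not have equal scores at their starts, and the gap varied by pair and by profile. Gm10591 minus Gm13304 was 0.03 and -0.01 in the controls against 0.10 and 0.26 in the deletion profiles. Il11ra2 minus Gm13305 was 0.19 and 0.11 in the controls against -0.46 and -0.18 in the deletion profiles, so Il11ra2 was the higher one in both controls and the lower one in both deletion profiles. At the start of Gm13305 the genotype difference was 0.03, and at that of Il11ra2 it was -0.44. Whether the genotype difference itself differed between these copies was not tested. Gm21586 minus Gm20878 was -0.50 and -0.50 in the controls against -0.30 and -0.17 in the deletion profiles, lower in every profile. Copies that straddle the edge differed most: 4930578G10Rik, whose promoter has 299 bases in common with that of Cntfr, lay below Cntfr in every profile, with 4930578G10Rik minus Cntfr running from -0.95 in control 1 to -2.44 in deletion 2. Ccl21a minus Ccl21d was 0.37 and 0.16 in the controls against 0.10 and 0.07 in the deletion profiles. Other gaps among the CCL21 copies were larger. Gm13304 minus Ccl21d was -0.25 and -0.73 in the controls against -0.65 and -0.87 in the deletion profiles. Ccl21a minus Gm13304 was 0.62 and 0.88 in the controls against 0.75 and 0.95 in the deletion profiles.

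The promoters of the locus were searched for CG, which reads the same on both strands and can follow itself directly. It was found in 98.2% of the 55 promoters and in 96.6% of 2053 promoters of the chromosome, with a median of 7 and 8 per promoter. At least 20 CG were found in 13 promoters of the locus (23.6%) and in 596 of the chromosome (29.0%). The median score was 2.67 at CG-dense promoters and 1.07 at the others in the locus, against 2.74 and 2.34 on the chromosome. Cntfr and Dnajb5 each had several of the CG-dense promoters of the locus, close together, so these promoters were not independent. The CG-dense promoters of Ccl21b, 4930578G10Rik and Fam205a3 lay in the basin, with scores of 1.04, 0.93 and 1.11, away from those at the edges. A count of CG says nothing of methylation, which was not measured here.

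**Figure D5:**
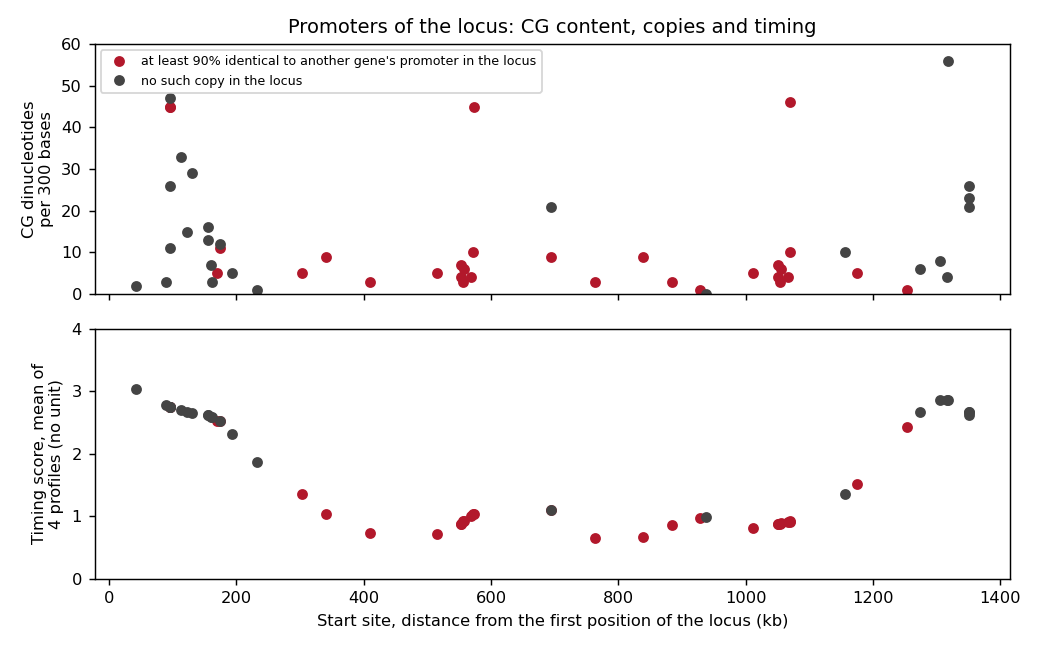
Promoters of the locus by distance of their start site from the first position of the locus in kb: number of CG dinucleotides per 300 bases (upper panel) and timing score as the mean of 4 profiles (lower panel, no unit). Red points have a copy of at least 90% identity in the locus and grey points have none. Most red points lie on the floor of the basin, and most grey points lie at the edges.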

How the data were processed

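Repli-seq libraries of JM8N4 control and Klf4 enhancer deletion cells were grouped from the labels, and each early and late library pair counted as 1 replicate. The deposited table gives a timing score per position and profile, which the authors scaled to a common interquartile range, per the file headers. Per the submitters' processing notes, Bowtie2, SAMtools and bedtools were used with the mm10 build. The log base, the smoothing, the depth and the treatment of reads with several matches are not given in the sources used. The plan allowed for log ratios, and the same tests were run on the scores. A position was taken as the start of its bin.

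Scores were compared with limma 3.58.1 (lmFit, eBayes) in R 4.3.3, two-sided, with Benjamini-Hochberg adjustment over all positions, all 100 kb windows with at least 5 positions, or all protein-coding genes, at a threshold of 0.05. SEs come from a moderated variance, which borrows from the other features tested. Single values were compared by exact permutation over the profiles. Peaks and troughs needed a prominence of 0.3. Genes and promoters came from RefSeq tables of GRCm38.p6, where 1301 of 1328 protein-coding genes overlapped a measured position. Promoter identity was counted from global alignments in Biopython 1.88. Limma was also run on simulated scores with noise drawn independently for each feature and profile. The deposited scores are not independent along the chromosome, so that run does not show how the test performs on them.

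The members and gene lists were chosen with earlier results of these data known. Named genes were the protein-coding members of the lists in the locus, its other protein-coding genes with a symbol that neither starts with Gm nor ends with Rik, and the 3 nearest genes on each side. Lepr and Csf3r were named as list members, the values of some genes that the rule names are not reported here, and the pairs of promoter copies, with their Gm and Rik genes, were chosen after their values were seen. Runs of positions without a value were to divide the locus, and since there were none, windows and promoter copies were described in their place. Alternatives were median centring, quantile normalization, limma's trend and robust options, the replicate number as a block, other window and flank widths, positions read as bin ends, leaving out positions within 25 kb of one without a value, and leaving out each profile.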

Additional observations from a re-analysis of the deposited data

How the results depend on the processing

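The number of limma calls in the locus was 0 for positions, windows and genes under every alternative tried, with windows of 50 and 200 kb and with positions read as bin ends included. At an unadjusted p under 0.05, quantile normalization gave 29 of 280 positions, 1 of 14 windows and 4 of 33 genes, and median centring gave 3, 0 and 2. With the replicate number as a block the locus also had 0 calls (45 positions, 1 window and 3 genes at an unadjusted p under 0.05, lowest adjusted p 0.129, 0.253 and 0.357), against 785 called positions, 3 windows and 0 genes on the chromosome. Shares of the chromosome at an unadjusted p were not counted under the rescalings or the block. The locus counts at an unadjusted p therefore have no background beside them. The labels do not say that numbers pair the profiles. Same-numbered profiles deviated together, with a correlation of 0.637 over the chromosome and 0.565 in the locus, across positions that are not independent. The block left the locus difference at -0.17 and that of locus minus flanks at -0.39.

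The locus difference was -0.28 after median centring, where the genotypes overlapped (exact permutation p = 0.667), -0.35 after quantile normalization and between -0.27 and -0.06 with 1 profile left out. Locus minus flanks differed by -0.39 after centring, -0.41 after quantile normalization, -0.36 and -0.43 with flanks of 0.5 and 2 Mb, and between -0.55 and -0.24 with 1 profile left out. The depth of the dip was between -1.45 and -1.26 with 1 profile left out. Positions below both controls numbered 113 after centring, 155 after quantile normalization and 126 to 190 with 1 profile left out, against 10.9% to 34.5% of the chromosome. Positions above both controls, 4 as deposited, numbered 0 after either rescaling, against 14.4% to 17.4% of the chromosome, and 4 to 74 with 1 profile left out, against 23.2% to 65.4%. The cause of the change under rescaling was not tested. The 12 genes and 6 windows whose genotypes did not overlap kept their sign in all 24 and 12 values after rescaling. The other alternatives could not change it, since they repeat the same difference or leave out a profile of groups chosen not to overlap. Among the others, 20 of 21 genes and 8 of 8 windows changed sign under at least 1 alternative, 6 genes and 2 windows of them under a rescaling. Leaving out positions near one without a value changed nothing, as the locus has none. The depth behind the scores is unknown, so no limit from depth can be given.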
